A study of Caenorhabditis elegans with 4 samples.

Results

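The 35 genes described here encode the core parts of the cilium of Caenorhabditis elegans and of the transport system that builds it, intraflagellar transport (IFT). They were chosen by name, as the rows of the deposited table whose gene name was on a fixed list, and all 35 were found among the 46766 genes of the table. The rule uses names and no measured value, but the list was chosen with earlier results of these data known. The list holds 4 genes of the IFT-A complex, 13 of the IFT-B complex, 6 of the BBSome, 6 motor subunits and 6 regulators or structural proteins.

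In C. elegans, cilia are found only at the tips of sensory neuron dendrites, where they detect odours, salts, osmotic strength, touch and pheromones. Trains of IFT-A, IFT-B and BBSome particles are carried towards the tip by the kinesins kinesin-II and OSM-3 and are returned to the base by a cytoplasmic dynein. Mutants in these genes were found because they fail to chemotax (che), to avoid high osmolarity (osm), to take up a fluorescent dye through the exposed cilia (dyf) or to enter the dauer stage normally (daf). Many of the genes are switched on by DAF-19, an RFX-type transcription factor.

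RNA was taken from wild-type N2 worms, the standard laboratory strain, at an age of 22 days. Synchronized populations in S-complete liquid medium, fed E. coli OP50, received Gengnianchun (GNC), a Chinese herbal formula of water extracts, at 3.94 mg/mL, or water as the vehicle control. Each group had 2 libraries, and nothing in the sources used here says that they came from separate cultures, so the p-values measure only the spread between these libraries. Whole worms were sequenced, so fewer ciliated neurons and less RNA per neuron cannot be told apart. The libraries held 21753657 and 20138896 counts in the GNC group, against 18639631 and 20088353 counts in the control group. Replicate libraries were not copies of each other. Their counts differed beyond sampling noise, by a chi-square of 7.23 per degree of freedom between the GNC libraries and 6.89 between the control libraries.

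The ciliary genes were expressed at low levels in these old worms. Their mean FPKM, a fragment count scaled to gene length and library total, ran from 0.340 for che-2 to 25.1 for dyf-3. The median of the 34 members that passed the filter on low counts was 1.77 FPKM, against 11.6 FPKM over all 16341 genes tested. The highest levels were those of dyf-3, daf-19 (10.8 FPKM), osm-3 (9.33 FPKM), ift-20 (7.93 FPKM) and klp-20 (7.43 FPKM). Below dyf-3 the order was loose among neighbours. The FPKM of ift-20 spanned 6.62 to 8.02 in GNC-treated worms and 6.64 to 10.5 in control worms, which covers the values of klp-20 in the same libraries. The lowest levels were those of che-2, xbx-1 (0.432 FPKM) and bbs-2 (0.544 FPKM). Subunits of a single complex differed widely in level, from 0.544 to 6.21 FPKM in the BBSome and from 0.607 to 3.31 FPKM in IFT-A. In counts, the tested members had a median of 72.2 per library, and this depth limits what can be seen for each of them.

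**Figure D1:**
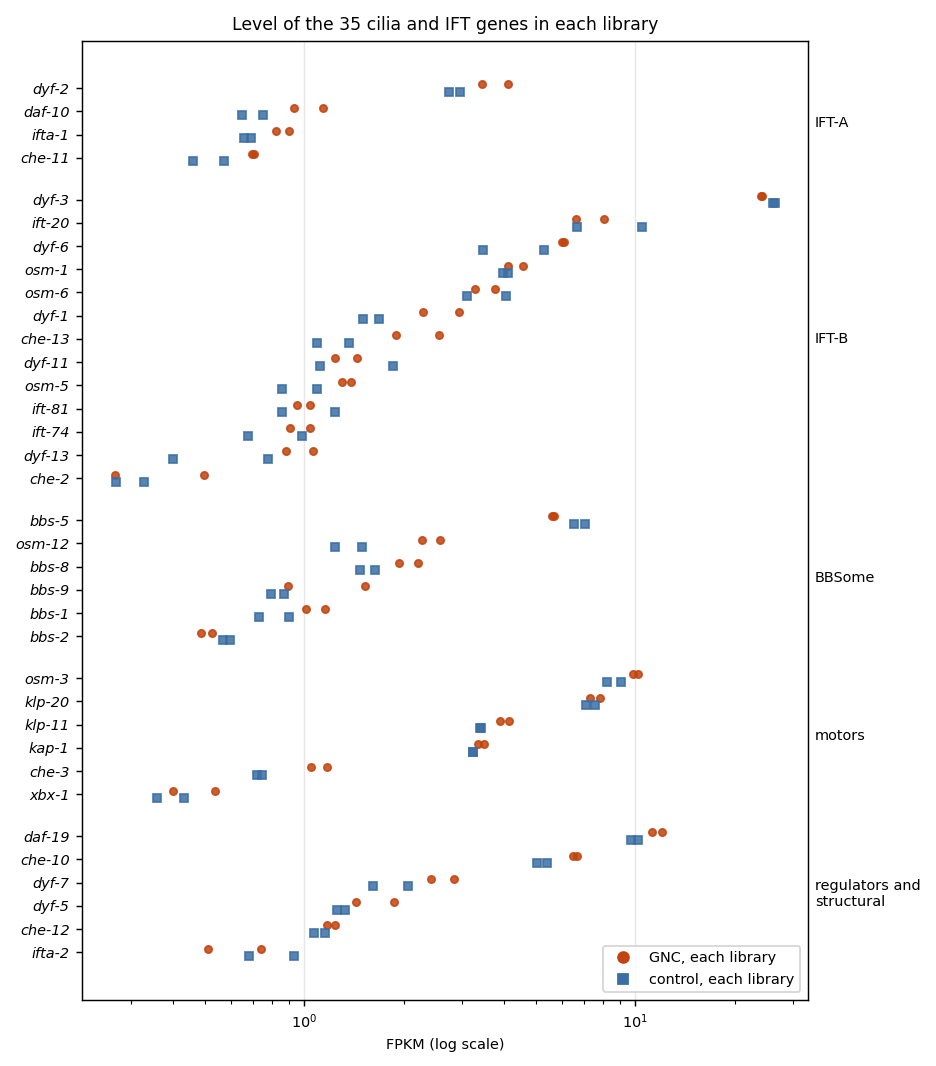
FPKM (horizontal axis, log scale) of the 35 ciliary genes in each library, grouped by role and ordered by level within a role. Circles are GNC libraries and squares are control libraries. The highest gene was dyf-3, at 25.1 FPKM on average, and the lowest was che-2, at 0.340 FPKM. FPKM is scaled to library totals, so a gap between groups here can differ from one in TMM-scaled CPM.

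No ciliary gene was called as changed 2-fold with GNC. At the thresholds of the study, a false discovery rate (FDR) under 0.05 and a 2-fold change, 0 of 34 tested members were higher and 0 were lower in edgeR's quasi-likelihood test, where 4.97% and 2.23% of all genes tested were called. DESeq2 and both limma fits called 0 at these thresholds too. With no fold threshold, 5 members were higher (14.7%) and 1 was lower (2.94%), against 19.8% and 20.5% of all genes tested, and 6 of 34 passed in either direction (17.6%), against 40.4%. An unadjusted p under 0.05 was reached by 8 members (23.5%), against 48.6% of all genes tested. The share of ciliary genes that passed was a little below the background for higher genes and well below it for lower genes. Members also had fewer counts, with a median of 72.2 per library, against 304 over all genes tested. The part of depth in these shares was not tested. The 5 higher genes were che-3, osm-12, dyf-1, che-10 and che-13, and the lower gene was dyf-3. The median log2 fold change was 0.24 over the 34 members and 0.02 over all genes tested, and 23 members had a positive value (67.6%, against 51.9% of all genes tested) and 11 a negative value. Added over all 35 members, the counts scaled to library size with TMM factors (CPM) were 322 and 319.7 in GNC-treated worms, against 292 and 299.9 in control worms, a log2 ratio of 0.12.

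For most members the interval with TMM excludes a 2-fold change between these libraries, which need not hold across separate cultures. The 95% interval of the log2 fold change lay between -1 and 1 for 27 of 34 members (79.4%), against 72.7% of all genes tested. The other 7 were che-2, che-13, dyf-1, dyf-13, bbs-9, osm-12 and ifta-2, of which 6 had intervals that passed 1 and ifta-2 had an interval that reached -1.43. In CPM, the lower GNC library exceeded the higher control library for 19 of 34 members (55.9%) and the reverse held for 3 (8.82%), where these shares were 36.5% and 34.5% of all genes tested.

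**Figure D2:**
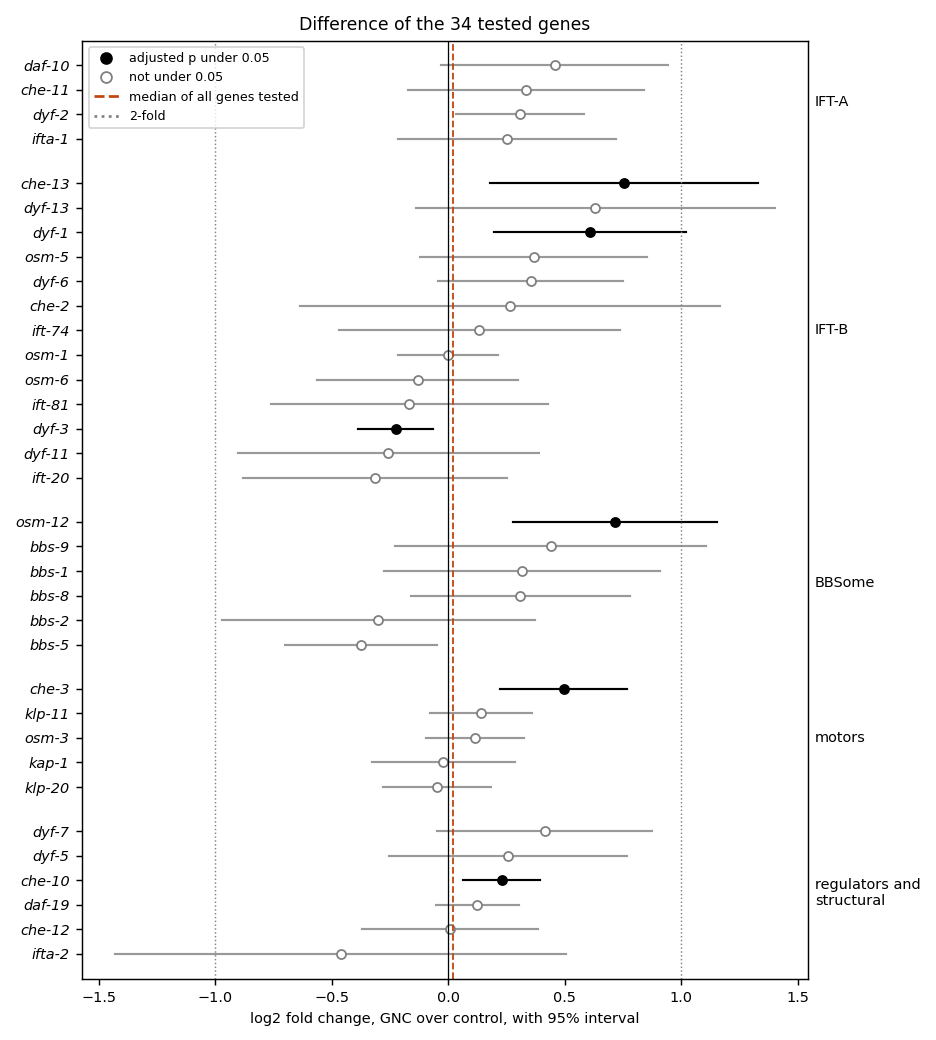
Log2 fold change of GNC over control (points) with its 95% interval (lines) for the 34 tested ciliary genes, grouped by role. Filled points have an adjusted p under 0.05, the dashed line is the median of all genes tested (0.02) and dotted lines mark 2-fold. All 34 points lie between the dotted lines, and 6 are filled.

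The 4 IFT-A genes, whose products are needed for return transport towards the base of the cilium, all had positive values with GNC. None passed the test with TMM. The WD-repeat gene dyf-2 (WBGene00001118, chromosome III, 13674881 to 13686445) had 324 and 360 counts, or 14.4 and 17.3 CPM, in GNC-treated worms, against 239 and 238 counts, or 13.2 and 12.4 CPM, in control worms. Its log2 fold change was 0.31 (95% interval 0.03 to 0.58, adjusted p = 0.0729, edgeR). It passed with upper quartile normalization (adjusted p = 0.0326), with library totals (0.0256) and without GNC replicate 1 (0.0322). For daf-10 (chromosome IV, 9136933 to 9146210), the counts were 90 and 68 in GNC-treated worms, against 44 and 55 in control worms, with a log2 fold change of 0.46 (adjusted p = 0.126, edgeR). The smallest value was that of ifta-1, at 0.25, with 74 and 63 counts in GNC-treated worms, against 49 and 50 in control worms, and che-11 had 0.33. The groups did not overlap in CPM for any IFT-A gene. The spans of dyf-2 and daf-10 overlap sid-2 and flp-1 on the other strand. The summed IFT-A level was 24.5 and 26.5 CPM in GNC-treated worms, against 20.8 and 19.99 CPM in control worms. The IFT-A median was 0.32 with TMM, and 0.15 and 0.09 under normalization offsets that follow expression alone and expression with gene length.

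The 13 IFT-B genes, which make up the particle needed for transport towards the tip, moved in both directions. Of these, 2 were higher (15.4%), 1 was lower (7.69%) and 10 did not pass, with values from -0.31 to 0.75. Over all genes tested, 19.8% were higher and 20.5% lower. The IFT-B median was 0.13, and it was -0.05 and -0.06 under the same offsets. Their summed level was almost the same in both groups, at 103 and 102 CPM in GNC-treated worms, against 99.4 and 105 CPM in control worms.

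The largest log2 fold change of all members was that of che-13 (chromosome I, 10507000 to 10515506), an IFT-B subunit required to build cilia. It had 60 and 75 counts, or 2.66 and 3.60 CPM, in GNC-treated worms, against 37 and 32 counts, or 2.04 and 1.67 CPM, in control worms. All GNC values were above all control values, for a log2 fold change of 0.75 (SE 0.26, adjusted p = 0.0408, edgeR). The span of che-13 overlaps F59C6.16 and F59C6.8 on the other strand, and the counting is not stated to use strand, so part of its reads could belong to them. The adjusted p was 0.287 without GNC replicate 2 and 0.142 without control replicate 2.

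The gene dyf-1 (chromosome I, 4989555 to 4994661), whose product is needed for OSM-3 to take part in transport, had 166 and 120 counts, or 7.37 and 5.76 CPM, in GNC-treated worms. In control worms it had 73 and 88 counts, or 4.02 and 4.59 CPM. The groups did not overlap, with a log2 fold change of 0.61 (SE 0.18, adjusted p = 0.0249, edgeR). The adjusted p was 0.222 without GNC replicate 1 and 0.0800 without control replicate 1. No other gene of the table overlaps dyf-1.

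The most abundant member, dyf-3 (chromosome IV, 3396581 to 3399123), fell with GNC, by a small amount. It had 812 and 758 counts, or 36.04 and 36.4 CPM, in GNC-treated worms, against 766 and 816 counts, or 42.2 and 42.6 CPM, in control worms. The raw counts overlapped, and the groups separated only after scaling to library size. The log2 fold change was -0.23 (SE 0.07, adjusted p = 0.0299, edgeR). It was -0.12 with library totals in place of TMM (adjusted p = 0.203), and with any library left out the adjusted p was 0.0543 to 0.143.

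Among the other IFT-B genes, osm-5 (chromosome X, 2984278 to 2991450), the worm counterpart of a mouse gene of polycystic kidney disease, had 77 and 67 counts in GNC-treated worms and 52 and 44 in control worms. In CPM the values were 3.42 and 3.22 in GNC-treated worms, against 2.86 and 2.30 in control worms, with a log2 fold change of 0.37 (SE 0.22, 95% interval -0.12 to 0.85, adjusted p = 0.211, edgeR). The groups did not overlap, but the interval includes 0. For dyf-13, the count was 43 and 33 in GNC-treated worms, against 27 and 15 in control worms, a log2 fold change of 0.63 with an interval of -0.14 to 1.40. Control replicate 2 was the low library there. With control replicate 1 left out, dyf-13 had a value of 1.16 (adjusted p = 0.0409, edgeR), the only 2-fold call of a member in any setting run.

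In dyf-6 the wider spread was also in the control group, with 315 and 296 counts in GNC-treated worms, against 156 and 257 counts in control worms (log2 fold change 0.35, adjusted p = 0.14, edgeR). The large subunit gene osm-1 had 21.4 and 23.7 CPM in GNC-treated worms, against 21.9 and 23.2 CPM in control worms. Its interval of -0.22 to 0.21 excludes all but a small change between these libraries. The lowest IFT-B value was that of ift-20, at -0.31, with 68 and 52 counts in GNC-treated worms and 76 and 52 in control worms. It overlaps spe-5 on the other strand. The tubulin-binding pair ift-74 and ift-81 had log2 fold changes of 0.13 and -0.17, and che-2, dyf-11 and osm-6 had 0.26, -0.26 and -0.13. In these 6 genes, and in osm-1, the libraries of the groups overlapped in CPM.

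The BBSome is a coat-like complex that travels with IFT and moves membrane proteins in and out of the cilium, and defects of its human counterpart cause Bardet-Biedl syndrome. Its 6 genes split, with 4 at higher and 2 at lower values. The test called 1 of the 6 higher (16.7%, against 19.8% of all genes tested). The gene osm-12 (chromosome III, 12191056 to 12202450), which encodes the worm BBS subunit named for its osmotic avoidance mutant, had 4.75 and 5.38 CPM in GNC-treated worms. In control worms it had 2.75 and 3.39 CPM, from 50 and 65 counts. The groups did not overlap, for a log2 fold change of 0.72 (SE 0.20, adjusted p = 0.0162, edgeR). The adjusted p was 0.0953 without GNC replicate 2 and 0.0630 without control replicate 1. The gene overlaps Y75B8A.44 on the other strand.

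The other BBSome genes did not pass. For bbs-1 (chromosome I, 14371142 to 14376018), 48 and 39 counts in GNC-treated worms stood against 32 and 28 counts in control worms, with a log2 fold change of 0.32 (SE 0.26, 95% interval -0.27 to 0.91, adjusted p = 0.373, edgeR). In CPM this was 2.13 and 1.87 in GNC-treated worms, against 1.76 and 1.46 in control worms, with no overlap. In bbs-9, GNC replicate 1 had 74 counts and GNC replicate 2 had 40, against 33 and 39 in control worms, and the value of 0.44 was -0.0052 without GNC replicate 1. The value of bbs-8 was 0.31. The lowest values were those of bbs-5 and bbs-2. For bbs-5 (chromosome III, 10258872 to 10261658), the level was 5.95 and 5.86 CPM in GNC-treated worms, against 7.26 and 8.04 CPM in control worms, a log2 fold change of -0.37 (adjusted p = 0.0659, edgeR). For bbs-2, with 24 and 24 counts in GNC-treated worms and 24 and 27 in control worms, it was -0.30. In both genes the GNC libraries lay below the control libraries, while the opposite held for osm-12, bbs-1 and bbs-8. Of these 5 genes only osm-12 passed the test, and the intervals of bbs-1, bbs-2 and bbs-8 include 0. Over all genes tested, the GNC libraries lay above the control libraries for 36.5% and below them for 34.5%.

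Of the 6 motor genes, 1 was higher, 4 did not pass and 1 was not tested. The share of higher genes was 20% of those tested, against 19.8% of all genes tested. The dynein heavy chain gene che-3 (chromosome I, 8062011 to 8081671), which encodes the motor of return transport, had 286 and 296 counts, or 12.7 and 14.2 CPM, in GNC-treated worms, against 168 and 188 counts, or 9.24 and 9.81 CPM, in control worms. The groups did not overlap, for a log2 fold change of 0.50 (SE 0.12, adjusted p = 0.00955, edgeR), the smallest adjusted p of all members. Without GNC replicate 2 the adjusted p was 0.0773. With expression-dependent offsets the value was 0.32 (adjusted p = 0.0669), and with offsets that also follow length it was 0.14 (adjusted p = 0.396). The gene was also the only member called by DESeq2 (adjusted p = 0.0442). Its partner, the light intermediate chain gene xbx-1, had 13 and 9 counts in GNC-treated worms, against 9 and 8 counts in control worms. It was the only member left untested by the filter, and with no filter its log2 fold change was 0.18 (adjusted p = 0.839, edgeR).

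For the kinesins the intervals allow only changes well under 2-fold between these libraries. The homodimeric kinesin gene osm-3 (chromosome IV, 3795872 to 3800461), whose product builds the outer part of the cilium, had 572 and 512 counts in GNC-treated worms and 395 and 468 in control worms. In CPM this was 25.4 and 24.6 in GNC-treated worms, against 21.7 and 24.4 in control worms, with a log2 fold change of 0.11 (SE 0.09, 95% interval -0.10 to 0.32, adjusted p = 0.369, edgeR). For the motor subunits of kinesin-II, klp-11 had 19.8 and 18.7 CPM in GNC-treated worms, against 17.2 and 17.7 CPM in control worms. The other motor subunit gene, klp-20, had 16.4 and 15.4 CPM in GNC-treated worms, against 16.8 and 16.1 CPM in control worms. The accessory subunit gene kap-1 had 7.19 and 7.54 CPM in GNC-treated worms, against 7.37 and 7.57 CPM in control worms. Their log2 fold changes were 0.14, -0.05 and -0.02, with intervals from -0.33 at the lowest to 0.36 at the highest.

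Of the regulators and structural genes, 1 of 6 passed, as higher (16.7%, against 19.8% of all genes tested). The rootletin gene che-10 (chromosome II, 4627811 to 4638384), whose product forms the rootlet at the base of the cilium and supports transport, had 957 and 909 counts, or 42.5 and 43.6 CPM, in GNC-treated worms. In control worms it had 684 and 687 counts, or 37.6 and 35.9 CPM. The groups did not overlap, for a log2 fold change of 0.23 (SE 0.07, adjusted p = 0.0316, edgeR). With libraries scaled to equal medians it was 0.10 (adjusted p = 0.327). The adjusted p was 0.0944 without GNC replicate 1, 0.156 without GNC replicate 2 and 0.108 without control replicate 2.

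The transcription factor gene daf-19 (chromosome II, 10157537 to 10169321) had 823 and 710 counts, or 36.5 and 34.1 CPM, in GNC-treated worms, against 598 and 611 counts, or 32.9 and 31.9 CPM, in control worms. Its log2 fold change was 0.12 (SE 0.08, 95% interval -0.05 to 0.30, adjusted p = 0.244, edgeR), which excludes a 2-fold change of the gene total between these libraries. The counts join all its isoforms, only some of which act on ciliary genes. The gene dyf-7, which encodes an extracellular protein that anchors the dendrite tip during development, had 109 and 86 counts in GNC-treated worms, against 53 and 73 in control worms, with a log2 fold change of 0.41 (adjusted p = 0.141, edgeR). The value was 0.26 for dyf-5, a kinase gene that limits cilium length, and 0.01 for che-12, a gene for a ciliary HEAT-repeat protein. For ifta-2, a Rab-like small GTPase gene, 9 and 12 counts in GNC-treated worms stood against 14 and 11 in control worms. Its value of -0.46 has an interval of -1.43 to 0.51, so its change was not measurable at this depth.

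The calls within the ciliary genes depended on how the libraries were scaled. Offsets that follow the level of expression left che-10 as the only higher member and added bbs-5 to dyf-3 as lower members. With offsets that also follow gene length, an alternative chosen after seeing the data, 0 members were higher, and dyf-3 (log2 fold change -0.21, adjusted p = 0.0436, edgeR) and bbs-5 (-0.59, adjusted p = 0.0103) were lower. The median of the members was 0.08 and 0.06 under these offsets, against -0.01 for all genes in each case. Limma on log2(FPKM + 0.1) called 0 members in either direction, with 25 of them tested.

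The members differ from the other genes in the features that such offsets use. The median length over which their fragments were counted was 2249 bases, against 1312 bases over all genes tested, and their median mean count was 72.2, against 304. Over the 34 members, the log2 fold change had a Pearson r of 0.40 and a Spearman rho of 0.30 with log2 length, and of -0.03 and -0.08 with mean log2 CPM. Over all 16341 genes the corresponding values were -0.013 and -0.015 with length, and -0.17 and -0.24 with mean log2 CPM. These are descriptions across genes of the same 4 libraries, and genes are not independent replicates. Among the longest members, che-3 counted over 12564 bases with a value of 0.50, che-10 over 6791 bases with 0.23 and osm-1 over 5370 bases with -0.0030. With the offsets that follow expression and length, the value of che-3 was 0.14 (adjusted p = 0.396, edgeR) and that of che-10 was 0.14 (adjusted p = 0.155).

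The members lay on every nuclear chromosome, with 8 on chromosome X, 7 on I, 6 on IV, 5 each on III and V, and 4 on II. None overlapped another member. In the positions of the table, 9 overlapped another protein-coding gene, in each case on the other strand. Of these 9, che-13 and osm-12 were among the higher genes (22.2%, against 19.8% of all genes tested). The median log2 fold change was 0.26 over these 9 and 0.23 over the 25 tested members that overlap no protein-coding gene.

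Of the 61 genes on 5 lists of other ciliary genes 57 were tested, and 10 were higher (17.5%) and 1 was lower (1.75%), against 19.8% and 20.5% of all genes tested. The share of higher genes was near the background and the share of lower genes was below it. The single lists hold too few genes for their counts to be read against that background. Their median value was 0.18, while their summed level was 537 and 539.6 CPM in GNC-treated worms, against 545 and 547 CPM in control worms, so median and sum differ in sign. In the transition zone, the gate at the ciliary base, 1 of 14 tested genes was higher, the scaffold gene ccep-290. It had 239 and 224 counts in GNC-treated worms, against 124 and 154 in control worms (log2 fold change 0.52, adjusted p = 0.0125, edgeR). The adjusted p was 0.0529 without GNC replicate 2 and 0.0566 without control replicate 1. Among 16 tested genes of other IFT and BBS functions, 3 were higher (arl-6, xbx-5 and ift-139, 18.8%) and 0 lower. The median of the 16 was 0.09 with TMM and -0.05 with libraries scaled to equal medians. The median of all genes tested moved likewise, from 0.02 to -0.11. The only 2-fold call of all ciliary lists was in that group, in arl-6, the small GTPase gene that brings the BBSome to membranes. It had 19 and 20 counts in GNC-treated worms, against 8 and 6 in control worms (log2 fold change 1.25, 95% interval 0.31 to 2.19, adjusted p = 0.0379, edgeR). These counts are low, and with any library left out the adjusted p was 0.0503 to 0.170.

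Of the 10 axonemal tubulin and modifier genes, 3 were higher (30%) and 1 lower (10%), against 19.8% and 20.5% of all genes tested. Here too the median (0.25) and the sum differ in sign, with 172.46 and 172.47 CPM in GNC-treated worms, against 187 and 194 CPM in control worms. The kinase gene nekl-4 had 99 and 78 counts in GNC-treated worms, against 42 and 52 in control worms, and the kinase gene mapk-15 had 102 and 109 counts in GNC-treated worms, against 60 and 58 in control worms. Their log2 fold changes were 0.69 and 0.62 (adjusted p = 0.0254 and 0.0258, edgeR). The tubulin glutamylase gene ttll-4 was lower, at 78.0 and 72.5 CPM in GNC-treated worms, against 86.0 and 94.0 CPM in control worms (-0.26, adjusted p = 0.0137, edgeR). Each of these calls was lost without some library, with adjusted p up to 0.173 for nekl-4, 0.167 for mapk-15 and 0.0748 for ttll-4. Among 9 genes of sensory transduction in cilia, the channel subunit genes ocr-2 and tax-2 were higher (22.2%, near the 19.8% of all genes tested). The median of the list was 0.10 with TMM and -0.03 with libraries scaled to equal medians. The median of all genes tested was 0.02 and -0.11 under the same 2 scalings. The gene ocr-2 had 4.75 and 5.04 CPM in GNC-treated worms, against 3.69 and 2.04 CPM in control worms (log2 fold change 0.78, adjusted p = 0.0341, edgeR). The gene tax-2 had 51 and 40 counts in GNC-treated worms, against 21 and 24 in control worms (0.80, adjusted p = 0.0426). Without a library these reached an adjusted p of 0.173 for ocr-2 (without control replicate 2) and 0.249 for tax-2 (without GNC replicate 1). The partner of tax-2 in the cGMP-gated channel, tax-4, had 13 and 10 counts in GNC-treated worms, against 15 and 22 in control worms, with a value of -0.89 that did not pass (adjusted p = 0.0949, edgeR).

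Several genes known from ciliated neurons of males were measured as well. In whole worms, the cells that gave their reads were not identified. All 8 tested had positive values, where 51.9% of all genes tested did, with a median of 0.32. The median was 0.18 with libraries scaled to equal medians and 0.16 with expression-dependent offsets, where that of all genes tested was -0.11 and -0.01. The untested gene, cwp-3, had 5 and 2 counts in GNC-treated worms, against 3 and 6 in control worms. Of the 8, 1 passed (12.5%, against 19.8% of all genes tested), the kinesin gene klp-6. It had 102 and 98 counts in GNC-treated worms, against 51 and 61 in control worms (0.62, adjusted p = 0.0259, edgeR). That call was lost with each library left out except control replicate 2, with adjusted p up to 0.115. Their summed level was 19.5 and 17.8 CPM in GNC-treated worms, against 15.1 and 14.1 CPM in control worms.

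**Figure D3:**
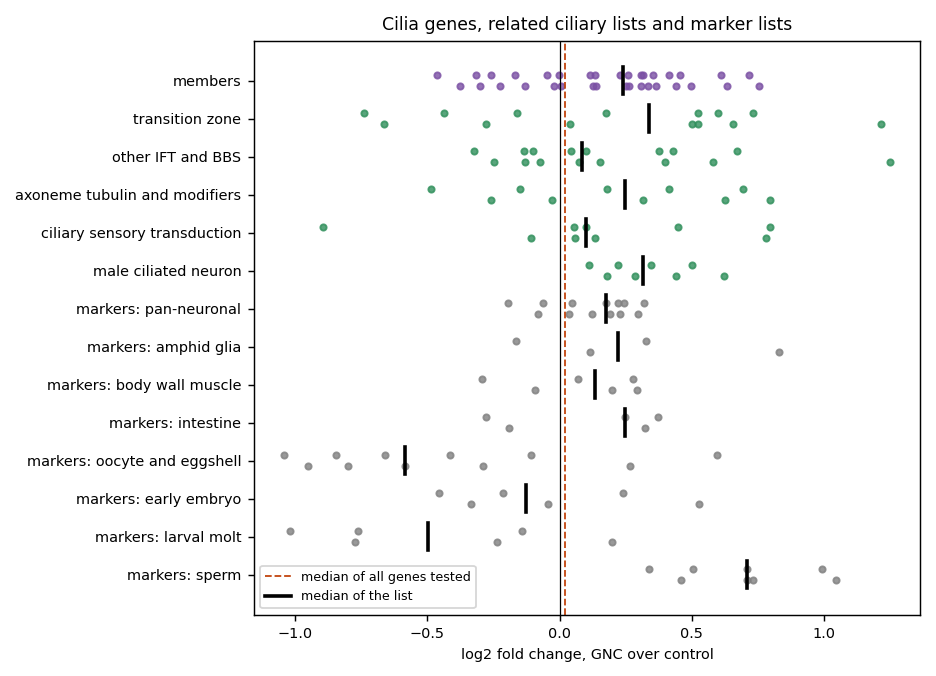
Log2 fold change of GNC over control for each tested gene (points) of the 35 members, 5 related ciliary lists and 8 marker lists, with each list's median (black bar) and the median of all genes tested (dashed line, 0.02). The medians were 0.24 for the members, 0.18 for pan-neuronal markers, -0.58 for oocyte and eggshell markers and 0.71 for sperm markers.

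Marker genes were read to see what else moved between the groups. Of 13 pan-neuronal markers, none was at 0, 3 were higher (23.1%, near the 19.8% of all genes tested) and 0 lower, with a median of 0.18 and a summed level of 906 and 921 CPM in GNC-treated worms, against 795 and 899.6 CPM in control worms. The higher genes were unc-64, the syntaxin gene (0.32, adjusted p = 0.00525, edgeR), unc-104 (0.24, adjusted p = 0.0219) and ric-19 (0.29, adjusted p = 0.0365). With single libraries left out, unc-64 kept its call, unc-104 reached an adjusted p of 0.110 (without control replicate 2) and ric-19 reached 0.252 (without GNC replicate 2). With TMM the medians of the ciliary members and of the neuronal markers were 0.24 and 0.18. With expression-dependent offsets they were 0.08 and 0.18, so their order depended on the scaling. The difference between the lists was not tested. Of the 4 tested markers of glia that wrap cilia, 1 was higher (25%, against 19.8% of all genes tested). That gene, fig-1 (0.33), kept its call in 5 of 15 alternatives. Of 6 body wall muscle markers 3 were higher (50%) and 1 lower (16.7%), and of 5 intestine markers 2 were higher (40%) and 1 lower (20%). The shares over all genes tested were 19.8% higher and 20.5% lower, and these lists hold few genes. Of 8 sperm markers, 7 were higher (87.5%, against 19.8% of all genes tested) and 0 lower, with summed levels of 346 and 373 CPM in GNC-treated worms, against 245 and 258 CPM in control worms. Of 11 oocyte and eggshell markers, 8 were lower (72.7%, against 20.5% of all genes tested) and 2 higher, with oma-2 past 2-fold (-1.04). Their median was -0.58, but their summed level was 4742 and 5145 CPM in GNC-treated worms, against 4214 and 4825 CPM in control worms. Of 6 larval molting markers, 2 were lower (33.3%, against 20.5% of all genes tested) and 0 higher. Among them noah-2 was past 2-fold (-1.02), with values from -1.19 to -0.85 when a library was left out. It kept its call in 12 of 15 alternatives. Of 6 early embryo markers, 1 was lower (16.7%, near the same 20.5%) and 0 higher. The part of these shifts in the ciliary values was not tested.

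**Figure D4:**
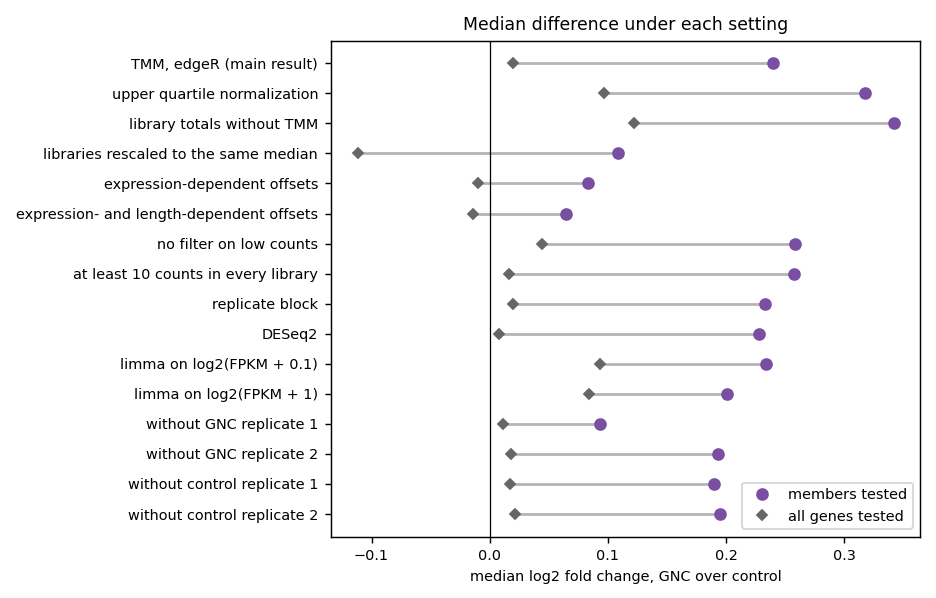
Median log2 fold change (horizontal axis) of the tested ciliary members (circles) and of all genes tested (diamonds) under each setting. The members lay above all genes in every setting drawn, by 0.22 with TMM and by 0.08 with expression- and length-dependent offsets, and by 0.08 without GNC replicate 1.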

How the data were processed

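Total RNA of 22-day-old N2 worms was sequenced on an Illumina HiSeq instrument. The authors deposited fragment counts per gene, without normalization, and FPKM values for 4 libraries. Per the labels, the submitters' processing notes name CASAVA 1.8, TopHat2 2.1.0, Cuffdiff and the build WBcel235, and the counter, its strand setting and the annotation release are not given in the sources used here. Among genes with 100 or more counts in each library, the deposited FPKM followed from the count, a fixed length and the library total, to within 1%, in 10376 of 10376. Positions are those of the table. Of 45040 identifiers found in Ensembl release 115 of WBcel235, 61.6% had identical positions, and 1 of the 35 members did.

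Counts were scaled by TMM, filtered with filterByExpr and compared between treatments by the quasi-likelihood F-test of edgeR 4.0.16 (R 4.3.3), which left 16341 genes. P-values were adjusted by the Benjamini-Hochberg method over all genes tested. Standard errors and 95% intervals follow from the F statistic. The procedure was run on simulated counts with a single spread for all genes, which does not bear on the calls of the members. With 2 libraries per group, the precision rests on the spread shared across genes (biological coefficient of variation 6.67%), and TMM factors ran from 0.954 to 1.04. CPM are TMM-scaled. The members and lists were chosen with earlier results of these data known, so list medians and counts are descriptions. Of 156 listed genes all were in the table, 7 under an older name, matched by identifier.

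Genes with full statistics are all members under an FDR of 0.05 and osm-5, osm-3, che-3, bbs-1 and daf-19 as examples of each role, with the extremes of each role and, for the other lists, 2-fold calls or up to 3 genes with the smallest adjusted p. Not every gene that this rule selects is reported here. Other genes named were chosen after their values were seen. The alternatives were DESeq2 1.42.0, other scalings, other filters, a replicate block, limma 3.58.1 with trend on log2(FPKM + 0.1) and log2(FPKM + 1) over genes that reached 1 FPKM in 2 or more libraries, and each library left out. A search of promoters for DAF-19 sites was planned and was not run, because no sequence was used here.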

Additional observations from a re-analysis of the deposited data

How the results depend on the processing

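With 2 libraries per group and a median of 72.2 counts per member, small changes of single ciliary genes are at the edge of what the data can show, and most calls moved with the setting. Expression- and length-dependent offsets were chosen after seeing the data. Of the 6 members called, che-3 kept its call in 10 of 15 alternatives, osm-12 in 7, che-10, dyf-1 and che-13 in 6 each and dyf-3 in 5, and none of the 6 changed direction.

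The count of higher members, 5 with TMM, was 6 with upper quartile normalization and with library totals, dyf-2 being added, 2 after scaling to equal medians, 1 with expression-dependent offsets, 0 with expression- and length-dependent offsets, 1 with no filter, 1 with DESeq2, and 0 with limma on log2(FPKM + 0.1) and on log2(FPKM + 1). It ran from 1 (without GNC replicate 2) to 4 with a library left out. The count of lower members, 1 with TMM, was 0 with upper quartile normalization, library totals, no filter, DESeq2 and both limma fits, and 2 after scaling to equal medians and with both kinds of offsets. It was 0 to 0 with any library left out. The count of 2-fold higher members was 0 to 1 with a library left out, the 1 being dyf-13 without control replicate 1. No filter tests 29615 genes, and limma on FPKM tests 25 members. The cause of the other shifts was not tested.

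The median of the members, 0.24 with TMM, was 0.32 with upper quartile normalization, 0.34 with library totals, 0.11 after scaling to equal medians, 0.0828 and 0.0643 with the offsets, and 0.20 with limma on log2(FPKM + 1). It ran from 0.0936 (without GNC replicate 1) to 0.19 with a library left out. The median of all genes was 0.12 with library totals and -0.11 after rescaling, so relative to it the members were 0.22 higher in each.

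Deviations of libraries that share a replicate number were almost uncorrelated (r = 0.0351 across genes). This value does not settle whether the numbers pair the samples, and the labels do not say. With a replicate block, 7070 of all genes tested passed in either direction, against 6594 without it. With the replicate block, 6 members were higher and 1 lower, dyf-6 being added. The promoter search and its mismatch alternative were not run.

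The following changes of sign concern members that did not pass the test with TMM. Scaling to equal medians moved the median of all genes tested from 0.02 to -0.11. With that scaling, the log2 fold change was -0.0073 for daf-19, -0.018 for osm-3 and -0.125 for che-12. With upper quartile normalization it was 0.0281 for klp-20, 0.0744 for osm-1 and 0.0557 for kap-1. With library totals the values of these 3 genes were 0.0526, 0.0995 and 0.0807, with limma on log2(FPKM + 0.1) 0.0507, 0.0966 and 0.0786, and on log2(FPKM + 1) 0.0453, 0.0801 and 0.0623. With no filter it was 0.0258 for osm-1 and 0.0080 for kap-1, and with the stricter filter 0.0032 for osm-1. With expression-dependent offsets it was -0.047 for ift-74 and -0.203 for che-12, and with length as well -0.063 for ift-74, -0.0388 for klp-11 and -0.261 for che-12. With DESeq2 it was -0.0045 for che-12. With a library left out, the value ran from -0.598 to 0.0301 for ift-20, -0.254 to 0.626 for che-2, -0.582 to 0.182 for dyf-11, -0.0784 to 0.0703 for osm-1, -0.322 to 0.0978 for osm-6, -0.108 to 0.411 for ift-74, -0.401 to 0.104 for ift-81, -0.0052 to 0.767 for bbs-9, -0.0554 to 0.0126 for kap-1 and -0.0359 to 0.0498 for che-12.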
